A study of Mus musculus with 8 samples.

Results

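A set of 10 genes of transforming growth factor β (TGF-β) signalling were followed in the developing mouse outflow tract and right ventricle (OFT/RV). They were chosen by name, by their role in the pathway and with earlier results of these data known, as 3 ligands (Tgfb1, Tgfb2 and Tgfb3), 3 receptors (Tgfbr1, Tgfbr2 and Tgfbr3), 2 latent TGF-β binding proteins (Ltbp1 and Ltbp3), the matrix protein gene Tgfbi and the inhibitory Smad gene Smad7. All 10 were found among the 20701 gene symbols of the expression table, each represented by its transcript with the highest mean count, and all 10 passed the filter on low counts that left 13769 genes for testing. RNA-Seq was performed on dissected OFT/RV of single embryos at stage E10.5. CTRL comprised 4 wild type embryos and Isl1_hypo comprised 4 Isl1 hypomorph embryos, homozygous for an allele (Isl1-f;neo) that lowers expression of Isl1 throughout the embryo. All 8 embryos carried the C57BL/6 strain label, and no treatment was named. The tissue was not sorted, so a lower level can come from fewer cells of a type or from less RNA per cell, and these cannot be told apart.

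TGF-β ligands are secreted in a latent form, in which the mature dimer stays bound to its own propeptide. Latent TGF-β binding proteins tether this complex to fibrillin microfibrils of the matrix, from which integrins and proteases release the ligand. The released ligand binds the type II receptor, which recruits and phosphorylates the type I receptor, and the signal passes through Smad proteins to the nucleus. In the heart, this pathway is known for its part in the endothelial-to-mesenchymal transition that fills the cushions and in septation of the outflow tract. Isl1 is a LIM-homeodomain transcription factor of the second heart field, the progenitor pool from which the OFT and RV arise. The comparison asks which genes of the ligand, receptor and latency apparatus differ in level when Isl1 is reduced.

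Promoter sequences are shown for the 2 members that were lower without overlap between the groups, Tgfbi and Ltbp1, and for the most abundant ligand, Tgfb2. Each is the run of 250 bases before a RefSeq transcription start (GRCm38.p6), written 5′ to 3′ on the strand of the gene. Capitals mark TAAT, the core letters bound by homeodomain proteins, and CAGAC, the Smad box, on either strand (ATTA and GTCTG when reversed). The windows are chr13:56609336-56609585 on the plus strand for Tgfbi, chr17:75005279-75005528 and chr17:75178531-75178780 on the plus strand for the 2 starts of Ltbp1, and chr1:186705990-186706239 on the minus strand for Tgfb2.
Tgfbi: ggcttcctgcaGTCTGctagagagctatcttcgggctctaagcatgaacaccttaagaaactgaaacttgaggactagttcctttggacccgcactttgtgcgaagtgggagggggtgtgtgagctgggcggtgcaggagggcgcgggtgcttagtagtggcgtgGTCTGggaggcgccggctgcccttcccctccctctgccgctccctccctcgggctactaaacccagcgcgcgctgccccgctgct
Ltbp1, first start: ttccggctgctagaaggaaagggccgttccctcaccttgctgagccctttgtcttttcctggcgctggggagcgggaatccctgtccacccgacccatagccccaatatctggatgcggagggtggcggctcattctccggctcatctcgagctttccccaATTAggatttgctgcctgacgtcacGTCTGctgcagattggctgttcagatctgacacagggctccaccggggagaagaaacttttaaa
Ltbp1, second start: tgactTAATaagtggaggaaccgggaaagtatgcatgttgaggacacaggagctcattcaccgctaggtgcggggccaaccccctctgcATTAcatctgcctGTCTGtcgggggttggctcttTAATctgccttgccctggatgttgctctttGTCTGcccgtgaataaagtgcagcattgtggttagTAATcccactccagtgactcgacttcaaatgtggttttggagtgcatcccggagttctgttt
Tgfb2: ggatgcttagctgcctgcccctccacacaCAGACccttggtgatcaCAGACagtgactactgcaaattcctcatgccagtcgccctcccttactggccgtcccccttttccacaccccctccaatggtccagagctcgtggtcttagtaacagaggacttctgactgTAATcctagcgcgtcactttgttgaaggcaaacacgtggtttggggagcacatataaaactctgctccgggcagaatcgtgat
The Tgfbi window held no TAAT and 2 CAGAC. The first Ltbp1 window held 1 of each, the second held 4 TAAT and 2 CAGAC, and the Tgfb2 window held 1 TAAT and 2 CAGAC. Of all 32851 promoter windows of this length, 54.9% held TAAT and 42.2% held CAGAC, so matches of such short letters are common and describe the sequence only. The table held 9 starts of 7 members (Tgfb1, Tgfb2, Tgfbr1, Tgfbr2, Tgfbi, Ltbp1 and Ltbp3).

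The Isl1 level followed the labels. Isl1 (chr13:117088478-117099896, minus strand, mm9) stood at 29.6, 61.5, 46.2 and 51.3 CPM (counts scaled to a common library size) across CTRL replicates 1 to 4. In Isl1_hypo replicates 1 to 4 it stood at 12.7, 6.86, 7.71 and 11.4 CPM. The Isl1_hypo mean of 9.67 ± 2.83 CPM was 20.5% of the CTRL mean of 47.2 ± 13.3 CPM (SD, n = 4 each), and the groups did not overlap. Its log2 fold change, as in all that follows Isl1_hypo over CTRL, was -2.29 with an SE of 0.256 (edgeR quasi-likelihood test, adjusted p = 0.0077). A fit with the globin level, a measure of red blood cell RNA, as covariate gave -2.29 at an adjusted p of 0.537. With the replicate number as a block it was -2.29 at an adjusted p of 0.0722. Total counts ranged from 29748455 to 46678970 per library in CTRL and from 18422250 to 33050295 in Isl1_hypo. Isl1_hypo replicate 3 stood apart from its group, with a median rank correlation of 0.9699 to its replicates (0.9833 to 0.9889 in the other 7 libraries) and 14305 genes with a count (14935 to 15396 in the others). Isl1_hypo replicate 1 also stood apart, since it held 708 counts of Cldn6, 282 of Cdh1 and 111 of Esrp1, genes of epithelium, against 0 to 9 in each of the other 7 libraries. RNA of Y-linked genes was present in 1 of 4 CTRL and 3 of 4 Isl1_hypo libraries, so sex and genotype were partly confounded, and the part of sex in the results was not tested.

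Among the 10 members, Tgfbi fell in Isl1_hypo and was the only member to pass an adjusted p of 0.05. Ltbp1 was also lower in every Isl1_hypo library than in any CTRL library, but its adjusted p was 0.0823. Levels of the 3 ligands and 3 receptors overlapped between the groups. Over all 13769 genes tested, 0.269% passed an adjusted p of 0.05, 0.123% lower and 0.145% higher, against 1 lower and 0 higher among the 10 members. At an unadjusted p of 0.05, 3 members were lower (Tgfbi, Ltbp1 and Ltbp3) and 1 was higher (Smad7). Over all genes, 11.9% passed this limit, 6.17% lower and 5.69% higher. Groups did not overlap for 2 of the 10 members and for 8.5% of all genes. The median log2 fold change was -0.21 over the members and 0.01 over all genes tested, with 7 members at a value below 0 and 3 above.

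**Figure D1:**
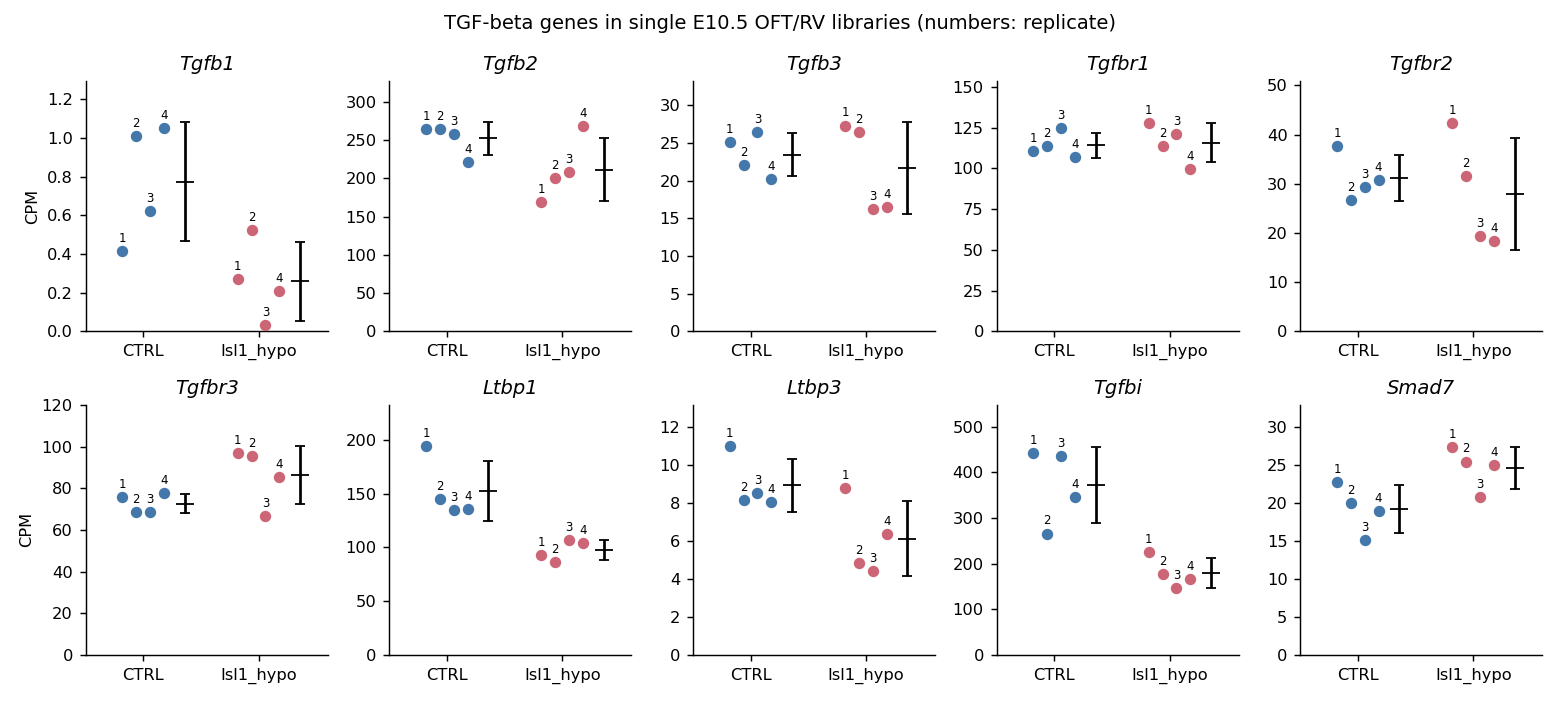
Expression of the 10 TGF-β genes in each library, 1 panel per gene with its own axis in CPM from 0. Points are single embryos numbered by replicate, and the bars show the mean ± SD of 4 CTRL or 4 Isl1_hypo libraries; the groups stand apart for Tgfbi (147 to 225 CPM in Isl1_hypo, 266 to 442 CPM in CTRL) and Ltbp1 (86.5 to 107 CPM against 135 to 194 CPM).

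Tgfbi (chr13:56710920-56740923, plus strand, mm9) encodes a secreted adhesion protein of the extracellular matrix, named for its induction by TGF-β. CTRL replicates 1 to 4 held 442, 266, 436 and 347 CPM of Tgfbi, against 225, 178, 147 and 167 CPM for Isl1_hypo replicates 1 to 4. All Isl1_hypo libraries lay below the lowest CTRL library, replicate 2. From a CTRL mean of 373 ± 83.8 CPM it fell to 179 ± 33.1 CPM in Isl1_hypo (SD, n = 4 each), or 48.0% of CTRL. The log2 fold change was -1.06 ± 0.18 (SE), with a 95% confidence interval from -1.45 to -0.67 and, by the quasi-likelihood test of edgeR over all genes, an adjusted p of 0.0359. In the fit with the globin covariate, the value was -1.0 and the adjusted p was 1.0. No gene passed an adjusted p of 0.05 in that fit, Isl1 included. Globin genes held 0.212% to 1.19% of counts in CTRL and 1.18% to 2.44% in Isl1_hypo. Globin level and genotype were thus partly confounded, and their parts cannot be told apart. With the replicate number as a block, Tgfbi was at -1.05 (edgeR, adjusted p = 0.091). The 3 CTRL libraries without Y-linked RNA held 266 to 442 CPM and the one such Isl1_hypo library held 178 CPM. With a single library on that side, these values cannot tell sex from genotype. The size held when each library was left out in turn (-1.19 to -0.97), but the adjusted p passed 0.05 in only 3 of these 8 fits, those without CTRL replicate 2, Isl1_hypo replicate 1 or Isl1_hypo replicate 3. It was 0.112, 0.127 and 0.0613 without CTRL replicates 1, 3 and 4, and to 0.103 and 0.13 without Isl1_hypo replicates 2 and 4.

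Of the 2 latent TGF-β binding protein genes among the members, Ltbp1 had the smaller p. Ltbp1 (chr17:75404908-75791852, plus strand, mm9) encodes a microfibril-associated protein that is disulphide-bonded to the TGF-β propeptide. CTRL replicates 1 to 4 held 194, 145, 135 and 136 CPM of Ltbp1, and Isl1_hypo replicates 1 to 4 held 93.0, 86.5, 107 and 104 CPM. CTRL replicate 1 was the highest, and the other 3 CTRL libraries lay close together above all Isl1_hypo libraries. The mean was 153 ± 28.3 CPM in CTRL and 97.6 ± 9.57 CPM in Isl1_hypo (SD, n = 4 each), or 64.0% of CTRL. The log2 fold change of -0.64 ± 0.14 (SE) had a 95% interval from -0.94 to -0.35 and an unadjusted p of 0.000514, which did not pass after adjustment over all genes (0.0823). With DESeq2 the adjusted p was 0.00217 and with limma-voom it was 0.0197, at log2 fold changes of -0.64 and -0.63. Those fits called 319 and 134 genes, against 37 in the main fit. With the replicate number as a block, the adjusted p was 0.176 (edgeR). When libraries were left out in turn, the adjusted p was 0.0702 to 0.218, and with the globin covariate it was 1.0 (log2 fold change -0.49, unadjusted p = 0.0456). The table listed 7 Ltbp1 transcripts of 6029 to 7419 bases, which share most of their reads, and each of the 7 gave a log2 ratio of -0.64. The longest transcript was 17.5% longer than the next but held only 1.23% to 3.42% more reads.

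Ltbp3 (chr19:5740904-5758532, plus strand, mm9) encodes a related binding protein and was measured at a much lower level. CTRL replicates 1 to 4 held 11.0, 8.19, 8.52 and 8.08 CPM, and Isl1_hypo replicates 1 to 4 held 8.8, 4.87, 4.43 and 6.4 CPM. Isl1_hypo replicate 1 lay within the CTRL range and the other 3 lay below it. The mean was 8.96 ± 1.40 CPM in CTRL and 6.12 ± 1.97 CPM in Isl1_hypo (SD, n = 4 each), a log2 difference of -0.55 ± 0.25 (SE) at an unadjusted p of 0.0472 and an adjusted p of 0.414. Leaving out single libraries gave -0.78 to -0.43, and the unadjusted p was under 0.05 in 1 of these 8 fits, the one without Isl1_hypo replicate 1. With the globin covariate it was -0.30 (unadjusted p = 0.452). The RPKM ratio of Ltbp1 to Ltbp3 was 11.0 to 12.3 in CTRL and 7.35 to 16.8 in Isl1_hypo.

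Tgfb2 (chr1:188447065-188529871, minus strand, mm9) was by far the most abundant ligand. Its level was 265, 265, 258 and 221 CPM in the CTRL libraries and 169, 201, 208 and 268 CPM in the Isl1_hypo libraries, in the order of replicates 1 to 4. Of the Isl1_hypo libraries 3 lay below every CTRL library and replicate 4 lay above them all. The log2 fold change was -0.25 ± 0.14 (SE), with a 95% interval from -0.55 to 0.05 (adjusted p = 0.494). Single libraries moved this value, to -0.39 without Isl1_hypo replicate 4 (unadjusted p = 0.00877) and to -0.16 without Isl1_hypo replicate 1 (unadjusted p = 0.248). With the globin level as a covariate it was -0.09 (unadjusted p = 0.699), and with limma-voom -0.30 (unadjusted p = 0.0333, adjusted p = 0.315).

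Tgfb3 (chr12:87397694-87419991, minus strand, mm9) was the second ligand in level. It stood at 25.1, 22.0, 26.5 and 20.2 CPM in CTRL and at 27.3, 26.5, 16.2 and 16.5 CPM in Isl1_hypo, each in the order of replicates 1 to 4. Isl1_hypo replicates 3 and 4 lay below CTRL, and replicates 1 and 2 lay at or above its top. The means were 23.5 ± 2.84 and 21.6 ± 6.07 CPM (SD, n = 4 each), and the log2 fold change was -0.12 with a 95% interval from -0.55 to 0.32 (adjusted p = 0.848, edgeR). It was -0.25 without Isl1_hypo replicate 1, -0.24 without replicate 2, and -0.00 and -0.01 without replicates 3 and 4. Without CTRL replicate 3 it was -0.06.

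Tgfb1 (chr7:26472021-26490096, plus strand, mm9) lay near the limit of detection. CTRL replicates 1 to 4 held 13, 41, 25 and 49 counts, whereas Isl1_hypo replicates 1 to 4 held 5, 14, 1 and 6 counts. In CPM these were 0.416, 1.01, 0.621 and 1.05 in CTRL and 0.272, 0.525, 0.0316 and 0.208 in Isl1_hypo. Isl1_hypo replicate 2 overlapped the CTRL range, and the other 3 lay below it. The single count in Isl1_hypo replicate 3 has an exact 95% Poisson interval of 0.0253 to 5.57 counts, which covers counting error only. The log2 fold change of -1.59 ± 0.75 (SE) had a wide interval, from -3.24 to 0.06, and an adjusted p of 0.44.

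Per transcript length, the ligand pool was mostly Tgfb2 in both groups. Of the summed RPKM (read counts scaled by transcript length and library size, as deposited) of the 3 ligands, Tgfb2 made up 85.9% to 87.9% in CTRL, with a mean of 86.9 ± 0.821% (SD, n = 4). In Isl1_hypo replicates 1 to 4 its share was 79.9%, 82.7%, 89.2% and 91.2%, with a mean of 85.8 ± 5.33%. Tgfb3 took 11.3% to 13.6% in CTRL, and 19.8%, 16.8%, 10.7% and 8.64% in Isl1_hypo replicates 1 to 4. All Isl1_hypo shares of Tgfb2 lay outside the CTRL range, below it in replicates 1 and 2 and above it in replicates 3 and 4. Tgfb1 did not exceed 0.984% in any library.

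**Figure D2:**
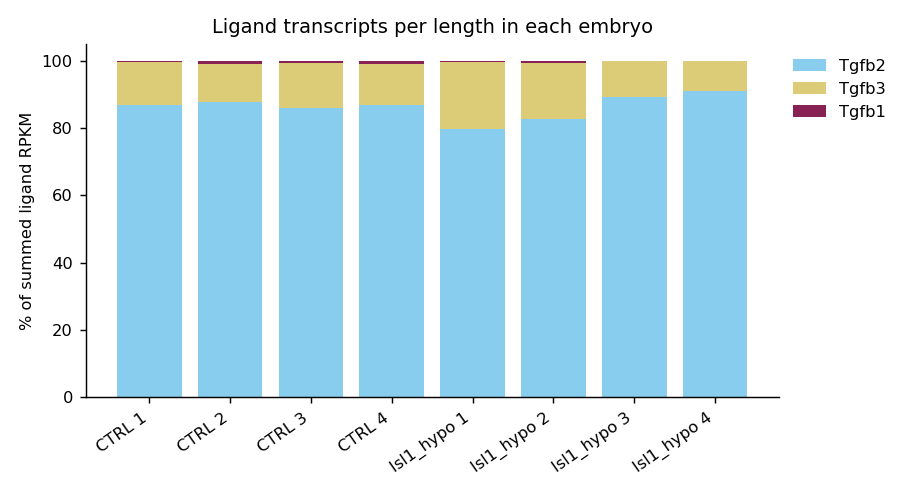
Share of each ligand in the summed RPKM of Tgfb1, Tgfb2 and Tgfb3 (percent), 1 stacked bar per library from 0 to 100%. Tgfb2 fills 85.9% to 87.9% of each CTRL bar and 79.9% to 91.2% of each Isl1_hypo bar.

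The receptors did not differ beyond the spread between embryos. Tgfbr1 (chr4:47366094-47427803, plus strand, mm9), the type I receptor kinase that phosphorylates Smad2 and Smad3, stood at 111, 114, 125 and 107 CPM in CTRL and at 128, 114, 121 and 99.9 CPM in Isl1_hypo. It was the member with the narrowest interval, a log2 difference of 0.02 with a 95% interval from -0.21 to 0.25 (adjusted p = 0.955, edgeR). This interval corresponds to 0.865 to 1.19 times the CTRL level.

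Tgfbr2 (chr9:115993415-116084383, minus strand, mm9), the type II receptor that binds ligand first, stood at 37.6, 26.6, 29.4 and 30.8 CPM in CTRL. In Isl1_hypo it stood at 42.4, 31.5, 19.4 and 18.3 CPM in replicates 1 to 4, so that replicate 1 was the highest of all 8 libraries and replicates 3 and 4 the lowest. The log2 fold change was -0.16 with a 95% interval from -0.70 to 0.38 (adjusted p = 0.834). It was -0.43 without Isl1_hypo replicate 1 (unadjusted p = 0.0669), and -0.02 and -0.00 without replicates 3 and 4. Without CTRL replicate 1 it was -0.06. The RPKM ratio of Tgfbr1 to Tgfbr2 was 2.45 to 3.56 in CTRL. In Isl1_hypo replicates 1 to 4 it was 2.52, 3.01, 5.20 and 4.55, the last pair above every CTRL library.

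Tgfbr3 (chr5:107535589-107718648, minus strand, mm9) encodes betaglycan, a co-receptor that presents ligand, TGF-β2 above all, to the type II receptor. It stood at 75.6, 68.7, 68.5 and 77.7 CPM in CTRL and at 97.0, 95.6, 66.8 and 85.3 CPM in Isl1_hypo. Isl1_hypo replicate 3 was the lowest of all 8 libraries, and the other 3 Isl1_hypo libraries lay above all CTRL libraries. The means were 72.6 ± 4.74 and 86.2 ± 13.9 CPM (SD, n = 4 each), a log2 difference of 0.25 ± 0.13 (SE) that did not pass the test (edgeR, adjusted p = 0.48). Without Isl1_hypo replicate 3 it was 0.35, with an unadjusted p of 0.00291. With limma-voom on all libraries it was also 0.35 (unadjusted p = 0.00315, adjusted p = 0.115).

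Smad7 (chr18:75527183-75555589, plus strand, mm9) encodes an inhibitory Smad that binds the active type I receptor and is itself a target of the pathway. Its level was 22.8, 20, 15.2 and 19 CPM in CTRL and 27.4, 25.5, 20.8 and 25 CPM in Isl1_hypo. Isl1_hypo replicate 3 lay within the CTRL range and the other 3 lay above it. The means were 19.2 ± 3.12 and 24.7 ± 2.79 CPM (SD, n = 4 each), and the log2 fold change of 0.36 ± 0.16 (SE) did not pass the test (unadjusted p = 0.0423, adjusted p = 0.399). Leaving out single libraries gave 0.26 to 0.45, and the unadjusted p was under 0.05 in 2 of these 8 fits, those without CTRL replicate 1 or Isl1_hypo replicate 3. With the globin covariate it was 0.54 (unadjusted p = 0.0516), and with limma-voom 0.48 (unadjusted p = 0.00495, adjusted p = 0.147).

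**Figure D3:**
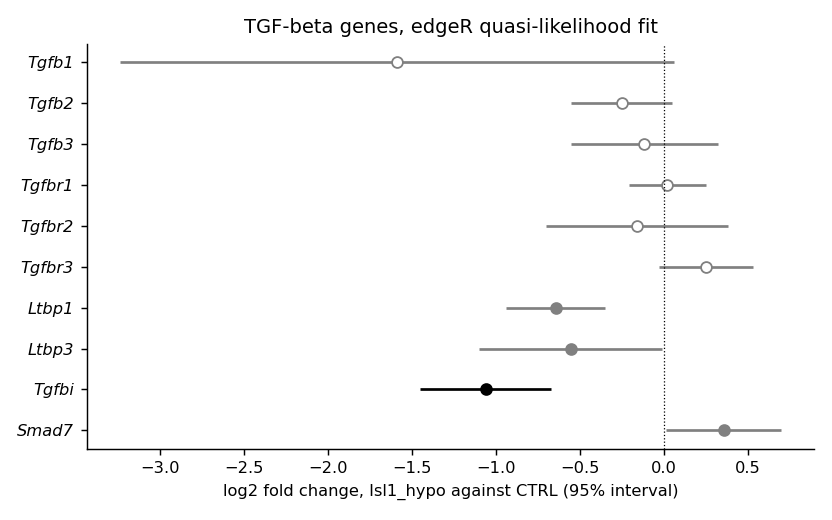
Log2 fold change of each member, Isl1_hypo over CTRL, with its 95% confidence interval from the edgeR quasi-likelihood fit (4 libraries per group). Points are filled where the unadjusted p was under 0.05, and black where the adjusted p was; the intervals of Tgfbi (-1.45 to -0.67) and Ltbp1 (-0.94 to -0.35) lie wholly below 0 and away from it, and those of the ligands and receptors include 0.

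Levels of different genes were compared on the RPKM scale, which corrects for transcript length. In CTRL the mean levels ran from 86.0 ± 19.6 RPKM for Tgfbi and 29.8 ± 2.60 RPKM for Tgfb2 to 1.07 ± 0.181 RPKM for Ltbp3 and 0.218 ± 0.0859 RPKM for Tgfb1 (SD, n = 4). Between these lay Ltbp1 at 12.6 ± 2.53, Tgfbr1 at 12.2 ± 0.72, Tgfbr3 at 7.38 ± 0.544, Tgfb3 at 4.26 ± 0.517, Tgfbr2 at 4.00 ± 0.647 and Smad7 at 2.66 ± 0.467 RPKM. The neighbours Ltbp1 and Tgfbr1, and Tgfb3 and Tgfbr2, overlapped over the CTRL libraries, and the other neighbours did not. Tgfbi lay above 95.5% of all genes tested, Tgfb2 above 85.9% and Tgfb1 above 7.87%. In Isl1_hypo, Tgfbi remained the highest at 40.6 ± 8.09 RPKM, followed by Tgfb2 at 24.5 ± 4.81 RPKM. Ltbp1, at 7.92 ± 0.693 RPKM, stood below Tgfbr1 (12.2 ± 1.29 RPKM) there and overlapped Tgfbr3 (8.62 ± 1.51 RPKM).

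**Figure D4:**
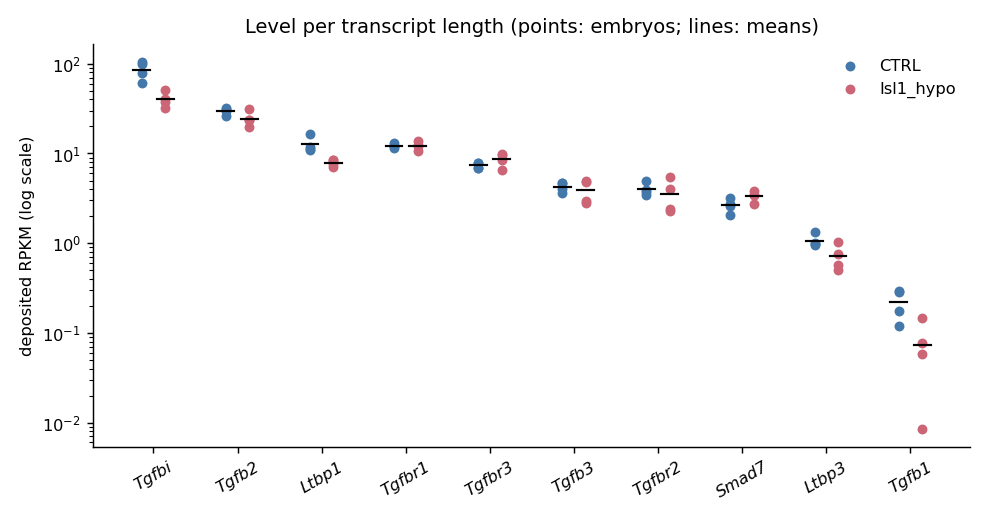
Level of each member per transcript length in RPKM, on a log axis, with a point for each CTRL and Isl1_hypo library lines at the group means and members ordered by their CTRL mean. Levels span from below 1 RPKM for Tgfb1 to a CTRL mean of 86.0 RPKM for Tgfbi, and the Isl1_hypo points lie below the CTRL points for Tgfbi and Ltbp1.

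None of the other genes of TGF-β latency and activation passed an adjusted p of 0.05. Of the 17 genes listed, 16 were tested, and Itgb6 was removed by the filter. At an unadjusted p of 0.05, 9 were lower and 1 was higher, against 6.17% lower and 5.69% higher over all genes, and the median of the list was -0.47 on the log2 scale. Without CTRL replicate 1, 5 were lower, and with the globin covariate 3 were. The summed level of the list was 1650 to 2020 CPM in CTRL and 1190 to 1480 CPM in Isl1_hypo, without overlap.

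Fbn1, which encodes the fibrillin of microfibrils to which latent TGF-β binding proteins attach, had the smallest p of this list. It stood at 269, 295, 265 and 309 CPM in CTRL and at 160, 167, 178 and 221 CPM in Isl1_hypo, without overlap. On the log2 scale the difference was -0.65 ± 0.12 (SE), at an adjusted p of 0.0577 by edgeR. Fbn2, the second fibrillin gene, stood at 355, 403, 328 and 383 CPM in CTRL and at 241, 268, 244 and 307 CPM in Isl1_hypo, again without overlap (log2 fold change -0.47 ± 0.11, adjusted p = 0.135).

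Dcn was the gene of the list that was higher. It encodes decorin, a small proteoglycan that binds TGF-β and is made by fibroblasts. It stood at 8.51, 21.9, 20.1 and 41.3 CPM in CTRL and at 119, 69.7, 93.6 and 60.0 CPM in Isl1_hypo (log2 fold change 1.89 ± 0.39, adjusted p = 0.0727, edgeR). The groups did not overlap, and CTRL replicate 1 was the lowest of all. Furin, the protease that cleaves the TGF-β propeptide, was 75.9 ± 17.8 CPM in CTRL and 53.1 ± 1.67 CPM in Isl1_hypo (SD, n = 4; adjusted p = 0.216, edgeR). Mmp14, a membrane-bound metalloproteinase, was 109 ± 21 and 72.5 ± 20 CPM (adjusted p = 0.287). Ltbp2 lay near the limit of detection, at 0.723 ± 0.402 CPM in CTRL, and had 1, 6, 0 and 1 counts in Isl1_hypo replicates 1 to 4 (adjusted p = 0.231).

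**Figure D5:**
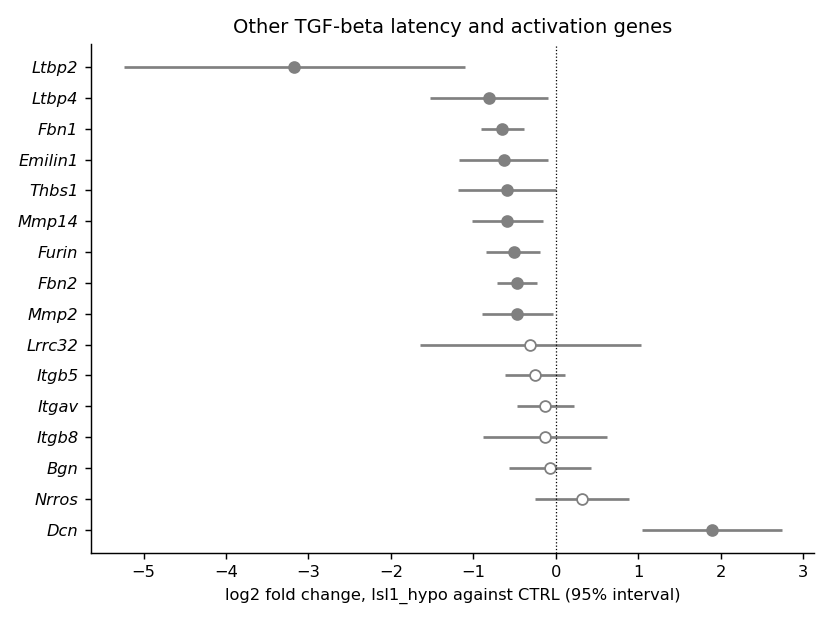
Log2 fold change, Isl1_hypo over CTRL, with 95% confidence intervals for the 16 tested genes of TGF-β latency and activation beside Ltbp1 and Ltbp3, with filled points where the unadjusted p was under 0.05. Most values lie below 0, as for Fbn1 (-0.65) and Fbn2 (-0.47), and Dcn (1.89) is the gene whose interval lies wholly above 0.

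Downstream of the ligands, transducers and response genes were examined in the same way. Of 16 co-receptors and signal transducers, 3 were lower and 0 higher at an unadjusted p of 0.05 (list median -0.06 on the log2 scale), against 6.17% lower over all genes. Smad6, the other inhibitory Smad gene and mainly a brake on BMP signalling, was 45.7, 58.0, 45.4 and 47.4 CPM in CTRL and 32.2, 32.2, 32.2 and 40.2 CPM in Isl1_hypo. Its groups did not overlap, and it was lower (log2 fold change -0.52 ± 0.13, adjusted p = 0.173) while the value of Smad7 was above 0. Pmepa1, a TGF-β-induced inhibitor of the pathway, was at -0.47 on the log2 scale (adjusted p = 0.304). Acvrl1, an endothelial type I receptor, was at -0.86 (adjusted p = 0.395). None of the list passed an adjusted p of 0.05.

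Of 16 genes known to respond to TGF-β, 4 were lower and 0 higher at an unadjusted p of 0.05 (list median -0.16 on the log2 scale), against 6.17% lower over all genes, and none passed after adjustment. Over the 3 pathway lists, 17 genes passed the unadjusted limit, and 5 did with the globin covariate. Ctgf, a matricellular protein gene, was 145 ± 27.2 CPM in CTRL and 86.8 ± 27.9 CPM in Isl1_hypo (SD, n = 4; log2 fold change -0.73, adjusted p = 0.205, edgeR). Snai1, a transcription factor of the epithelial-to-mesenchymal transition, was 38.6 ± 6.30 and 22.0 ± 8.34 CPM without overlap (log2 fold change -0.81, adjusted p = 0.283). Tgfb1i1, which encodes the focal adhesion protein Hic-5, was at -0.43 on the log2 scale (adjusted p = 0.319), and the fibronectin gene Fn1 at -0.30 (adjusted p = 0.391).

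Markers of other cell types were examined beside these results, with the same test, under which 6.17% of all genes were lower and 5.69% higher at an unadjusted p of 0.05. Ventricle and outflow muscle genes were abundant in every library, at a summed 38800 to 47800 CPM in CTRL and 42800 to 51000 CPM in Isl1_hypo, and 2 of 8 were lower at an unadjusted p of 0.05. These were the myosin heavy chain genes Myh7 (-0.49 on the log2 scale, adjusted p = 0.165, no overlap) and Myh6 (-0.31, adjusted p = 0.392). Mesenchyme markers summed to 2790 to 4210 CPM in CTRL and 1740 to 3780 CPM in Isl1_hypo, and 4 of 10 were lower at an unadjusted p of 0.05 (list median -0.43 on the log2 scale). Endothelial markers summed to 745 to 877 and 590 to 795 CPM, with 2 of 8 lower (Pecam1 and Cdh5). Smooth muscle markers summed to 5290 to 7800 and 5270 to 7680 CPM, with 1 of 5 lower. The summed level of epicardial markers did not overlap, at 54.2 to 342 CPM in CTRL and 413 to 706 CPM in Isl1_hypo, and 5 of 6 were higher. Their lowest library, CTRL replicate 1, was also the lowest for Dcn. The part of these cell types in the levels of Tgfbi, Ltbp1, Fbn1 and Dcn was not tested.

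Of red blood cell genes, 8 of 8 erythroid markers and 7 of 9 globin genes were higher in Isl1_hypo at an unadjusted p of 0.05, and 1 and 0 of them at an adjusted p of 0.05. Over all genes, 5.69% were higher at the unadjusted and 0.145% at the adjusted limit. Hba-a1 and Hba-a2 had the same counts in every library, Hbb-bs nearly those of Hbb-b1, and Hbb-bt nearly those of Hbb-b2, so these pairs share their reads. With each pair counted once, 5 of 6 globin genes were higher. Erythroid markers summed to 43.1 to 156 CPM in CTRL and 172 to 366 CPM in Isl1_hypo, and globin genes held 0.212% to 1.19% and 1.18% to 2.44% of the counts, with overlap. The globin share differed by 2.0 on the log2 scale (p = 0.0571, exact two-sided permutation test, where the smallest possible is 0.0286), and by 1.99 with each pair counted once (exact p = 0.0571). With the globin level as a covariate, Tgfbi was at -1.0 on the log2 scale (unadjusted p = 0.00466) and Ltbp1 at -0.49 (unadjusted p = 0.0456). No gene had an adjusted p under 0.05 in that fit. Platelet markers (60.1 to 196 CPM in Isl1_hypo, 39.9 to 77.0 CPM in CTRL) were higher for 3 of 5. Macrophage and neural crest markers had 0 genes past an unadjusted p of 0.05 of 5 and 3 tested. The filter removed Fcgr1 of the first list and Sox10, Foxd3 and Tfap2b of the second; Tfap2b had 1 to 5 counts in CTRL and 4 to 15 in Isl1_hypo, and its CPM did not overlap.

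Of 6 epithelial markers, Epcam, Krt8 and Krt18 passed the filter and were higher at an unadjusted p of 0.05, but Isl1_hypo replicate 1 stood out. Epcam was at 9.83 CPM there and at 0.128 to 1.87 CPM in the other 7 libraries, with the groups overlapping. Krt8 and Krt18 did not overlap between the groups (24.7 to 44.7 CPM against 46.1 to 92.7 CPM for Krt8). All 6 markers summed to 67.9 to 115 CPM in CTRL and to 302, 124, 192 and 177 CPM in Isl1_hypo replicates 1 to 4. Without Isl1_hypo replicate 1, Tgfbi was at -1.19 on the log2 scale (adjusted p = 0.0326, edgeR) and Ltbp1 at -0.62 (adjusted p = 0.143).

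The pattern of each ligand and of Tgfbi over the 8 libraries was compared with that of all genes at a mean of at least 5 CPM, by the Pearson r of log2 CPM. For Tgfb2 the most alike were Cep350 (r = 0.954), Arhgap31 (r = 0.95) and Plpp6 (r = 0.948), and for Tgfb3 they were Uba2 (r = 0.991), Fbxo40 (r = 0.99) and Tmem185b (r = 0.974). For Tgfbi they were Edil3 and B2m (r = 0.981 each) and St6galnac5 (r = 0.972), and for Tgfb1 Nf2 (r = 0.975), Hcfc1 (r = 0.973) and Prag1 (r = 0.969). Among the members themselves, Tgfbr2 and Tgfb3 were the most alike (r = 0.88), followed by Tgfbi and Ltbp3 (r = 0.84). These values are descriptions over 8 libraries of 2 groups and differing depth, which every gene compared shares, chosen as the highest of many.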

How the data were processed

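RNA was isolated from single genotyped embryos and sequenced on a BGISEQ-500. The authors aligned reads to mm9 with STAR and counted exon reads per RefSeq transcript with HOMER on both strands; the deposited counts are whole numbers that were not normalized. Where genes overlap, a count can therefore include reads of either one. The authors computed the RPKM values, also deposited, from these counts and the transcript length with edgeR. The deposited columns of the authors' own DESeq2 comparison (mean, log2 fold change with its error, statistic and p-values) were not used. Of 31507 transcripts, the one with the highest mean count was kept for each of 20701 symbols.

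Counts were filtered with filterByExpr and scaled by TMM, and the groups were tested in edgeR 4.0.16 (glmQLFit and glmQLFTest, no covariate) with Benjamini-Hochberg adjustment across 13769 genes. The SE is the size of the log2 fold change divided by the root of F. The biological coefficient of variation was 26.4%. CPM used TMM-scaled library sizes, and log2 CPM a prior count of 2. The procedure was tested on simulated data. Replicates were single embryos, so p-values measure the spread between embryos.

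Alternatives were RLE and upper quartile scaling, DESeq2 1.42.0, limma-voom (limma 3.58.1) with sample weights, no filter, at least 10 counts in every library, the longest transcript, a replicate block, a globin covariate, and leaving out each library. Counting globin genes that share reads once was added after seeing the data. Coordinates of genes came from the GENCODE annotation of mm9, and promoter sequences from RefSeq. Named genes were Isl1, the 10 members, up to 6 genes per pathway list with the smallest unadjusted p under 0.05, and the 3 genes most alike each ligand or called member, beside marker genes that lead or define their list. Myh6, Myh7, Krt8, Krt18 and Tfap2b were named after their values were seen, as were Pecam1 and Cdh5. Members and lists were chosen with earlier results of these data known.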

Additional observations from a re-analysis of the deposited data

Results flagged for a closer look

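Values of the 10 members, Isl1 and the globin share were searched for libraries far from their group, and 2 of 24 groups of 4 held one, where chance alone flags about 1 in 20 groups, or 1.2 of 24. Tgfb2 was at 221 CPM in CTRL replicate 4, with the other CTRL libraries at 258 to 265 CPM, and the gap was 0.858 of the range. Ltbp3 was at 11.0 CPM in CTRL replicate 1, with the others at 8.08 to 8.52 CPM, and the gap was 0.831 of the range. The limit for 4 libraries is 0.829.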

How the results depend on the processing

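Of 169 values of the members under alternatives, 154 kept their direction and side of the adjusted p of 0.05, 7 lost the call, 2 gained it and 6 changed sign. Isl1 was not called with the globin covariate (-2.29, adjusted p = 0.537) or the replicate block (-2.29, adjusted p = 0.0722). Tgfbi was likewise not called with the covariate (-1.0) or the replicate block (-1.05, adjusted p = 0.091), and ranged from -1.19 to -0.97 when libraries were left out. The number of genes called, 37, became 319 with DESeq2, 134 with limma-voom, 0 with the covariate (491 at an unadjusted p of 0.05), 0 with the replicate block (1582) and 4 to 48 when libraries were left out. Members called were 2 with DESeq2 and with limma-voom, 0 with the covariate and the block, and 0 to 1 when libraries were left out. At an unadjusted p, the 4 members became 2 with the covariate and 2 to 4 when libraries were left out. The 9 lower latency genes became 3 and 5 to 9, and the 17 pathway genes became 5 and 13 to 20. The sign changed for Tgfb3 (0.15) and Tgfbr2 (0.01) with the covariate and for Tgfbr1 with limma-voom (-0.01) and without single libraries (-0.03 to 0.08), all within their intervals; the cause was not tested. Libraries of the same replicate number showed no shared deviation from their group means over all genes (same-number correlations -0.0209 to 0.0219). This does not settle whether the numbers pair the embryos. The globin share difference, 2.0, was 1.99 with shared globin genes counted once, a choice made after seeing the data. Tgfb1 gave no value with at least 10 counts in every library, and its depth limits what can be shown.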
